A study of Mus musculus with 14 samples.

Results

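The results below follow 6 genes in natural killer (NK) cells: Denn2b, Gpr25, Dhrs3, Tbxa2r, Cym and Slc25a23. They are 6 of the 10210 genes listed in the NK count table, of which 8471 were tested, and all 6 passed the filter on low counts. They were chosen by their CPM, which were lower in NK cells from spleens of tumour-bearing mice than in NK cells from healthy spleens, so that difference is described here with no test. The question asked is whether the lower level was also present in NK cells inside the tumour, in libraries that took no part in the choice.

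The data are bulk RNA counts from mRNA 3' ends of sorted cells of BALB/c females. Healthy spleen NK (3 libraries) came from spleens of healthy mice, for which the labels give an age of 8 weeks. Tumour-bearing spleen NK (4 libraries) and tumour NK (4 libraries) came from mice injected at 8 weeks of age with 100000 cells of 4T1-GFP in the lower left mammary fat pad, a mouse mammary tumour line that is grown in BALB/c hosts to model breast cancer and that here carried green fluorescent protein (GFP). The age of the tumour-bearing mice when organs were taken and the size of the tumours are not given in the sources used here, nor is it said whether a library stands for 1 mouse or for pooled mice. NK cells of all 3 groups were purified with a magnetic kit and then sorted as CD45+ NKp46+ cells negative for GFP, EPCAM, CD3, CD31 and CD14. Tumours were digested with collagenase A (3 mg/ml) and DNase (70 unit/ml) for 20 min at 37 °C, and spleens were crushed and kept in red cell lysis buffer for 5 min on ice, so tissue and handling cannot be told apart in a comparison of tumour with spleen. A separate table holds 3 libraries of sCAFs, a subset of cancer-associated fibroblasts sorted from the same kind of tumour as EPCAM, GFP, CD45, CD31 and PDPN negative cells.

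NK cells are innate lymphocytes that kill stressed, infected or transformed cells, and the spleen is a main reservoir of circulating, mature NK cells. The 6 genes belong to separate pathways. Denn2b, formerly St5, encodes a DENN domain protein that activates Rab GTPases, the switches of vesicle traffic, and Gpr25 encodes a G protein-coupled receptor found on lymphocytes. Tbxa2r encodes the receptor for thromboxane A2, a lipid mediator made from arachidonic acid by cyclooxygenase and thromboxane synthase. Dhrs3 encodes a dehydrogenase/reductase that turns retinaldehyde back into retinol and so limits the making of retinoic acid, and it is known as a gene that retinoic acid itself induces. Cym encodes chymosin, an aspartic protease best known from the stomach of suckling mammals, and Slc25a23 encodes a calcium-regulated carrier that exchanges ATP-Mg and phosphate across the inner mitochondrial membrane.

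All 6 are protein-coding in the GENCODE M21 annotation of GRCm38 (mm10), where Denn2b is at chr7:109523911-109703605 under its older name on the minus strand, Gpr25 at chr1:136259797-136260873 on the minus strand and Dhrs3 at chr4:144892827-144928209 on the plus strand. Tbxa2r is at chr10:81328731-81335172 on the plus strand, Cym at chr3:107211293-107221732 and Slc25a23 at chr17:57043711-57059863, the latter pair on the minus strand. Antisense genes overlap the 3' end of Gpr25 (Gm26781) and of Slc25a23 (Gm17168). Gm44864 overlaps Denn2b and the protein-coding gene Crb3 overlaps Slc25a23, each on the other strand and without covering the 3' end. Whether the counting used strand is not given in the sources used here, so reads of these genes and of their antisense partners cannot be told apart.

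The stretch of 250 bases before a transcription start was read from RefSeq windows of GRCm38.p6, in which all 6 genes were found, to ask whether genes picked for the same change share sequence there. The 4 windows below lie outside annotated exons of their genes and are written 5′ to 3′ toward the start. Capitals mark matches, on either strand, to any of the 7 motifs spelled out after them.
Gpr25, chr1:136260927-136261176, minus strand: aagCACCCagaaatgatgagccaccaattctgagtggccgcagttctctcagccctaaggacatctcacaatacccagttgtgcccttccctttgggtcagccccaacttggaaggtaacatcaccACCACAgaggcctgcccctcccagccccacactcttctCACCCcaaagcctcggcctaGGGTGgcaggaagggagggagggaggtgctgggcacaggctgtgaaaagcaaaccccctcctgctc
Cym, chr3:107221733-107221982, minus strand: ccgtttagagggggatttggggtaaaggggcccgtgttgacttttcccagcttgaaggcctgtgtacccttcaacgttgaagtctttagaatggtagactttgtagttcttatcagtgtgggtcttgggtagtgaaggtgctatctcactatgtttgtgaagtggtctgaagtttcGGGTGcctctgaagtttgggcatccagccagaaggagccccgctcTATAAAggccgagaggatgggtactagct
Tbxa2r, chr10:81328018-81328267, plus strand: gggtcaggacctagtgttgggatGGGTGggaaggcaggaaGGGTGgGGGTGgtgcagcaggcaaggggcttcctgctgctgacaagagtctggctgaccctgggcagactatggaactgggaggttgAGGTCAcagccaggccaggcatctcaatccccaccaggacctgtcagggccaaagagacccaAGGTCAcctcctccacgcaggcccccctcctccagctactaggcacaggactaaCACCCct
Dhrs3, chr4:144892577-144892826, plus strand: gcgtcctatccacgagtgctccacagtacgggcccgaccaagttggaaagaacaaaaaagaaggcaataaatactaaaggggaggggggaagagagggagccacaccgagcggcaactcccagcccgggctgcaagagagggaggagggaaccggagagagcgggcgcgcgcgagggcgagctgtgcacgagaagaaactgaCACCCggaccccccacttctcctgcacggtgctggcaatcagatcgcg
The KLF motif CACCC was in a window of 5 of the 6 genes, and 52.0% of all 32851 windows hold it. The 6 genes have 10 windows among them, so a count of genes and a share of windows are not like for like. The RUNX motif TGTGGT was in Gpr25, on the minus strand 124 to 119 bases before the start, and in other windows of Dhrs3, where 14% of all windows hold it. Those windows of Dhrs3 overlap, lie inside the annotated gene and hold the same sites. The nuclear receptor half-site AGGTCA, held by 14% of windows, was found in Tbxa2r alone, where the window shown has it at 123 to 118 and again at 61 to 56 bases before the start. The TATA box TATAAA (12.4% of windows) was in Cym alone, 29 to 24 bases before the start. The T-box motif AGGTGT (11.8% of windows) was in Slc25a23 alone. The ETS motif CCGGAAG (6.9% of windows) was in none of the 6, and so was the AP-1 motif TGANTCA (6.7% of windows). The windows shown also differed in base composition, with GC contents of 58.8% for Gpr25, 50% for Cym, 62.4% for Tbxa2r and 61.6% for Dhrs3 against a median of 52.4%, and with 2, 6, 1 and 19 CpG pairs in that order against a median of 6. A match is only a description of these letters.

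The NK libraries held between 559688 and 1966963 counts, and a count of 0 allows up to 3 counts, or 1.54 to 4.62 CPM, depending on the library. CPM here are normalised read counts, scaled to a common library total on library sizes corrected by the trimmed mean of M values (TMM). Intervals from counts cover counting error only. Replicates correlated across genes at r from 0.916 to 0.978, where genes are not independent replicates. Of 15 NK marker genes 14 were listed, and their summed level was 31514 to 33878 CPM in healthy spleens, 32369 to 36215 CPM in tumour-bearing spleens and 25048 to 31310 CPM in tumours. The spleen libraries fell into a split that crosses both groups and that no label names, with healthy replicate 1 and tumour-bearing replicates 1 and 2 on side 1 and the other 4 libraries on side 2. The sides were read from these same data, as the sign along the main axis of spread in log2 CPM with the group means taken out. Among the calls between tumour and tumour-bearing spleen NK 54.5% were higher in the tumour under TMM, 41.6% under upper-quartile scaling and 37.7% with raw library totals. Against healthy spleens these shares were 54.2%, 42.4% and 32.8%. Raw totals shifted the median log2 difference of all genes by -0.12 and -0.20 in these comparisons, and upper-quartile scaling by -0.099 and -0.10.

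Between the spleens, all 6 genes were lower in each of the 4 tumour-bearing libraries than in each of the 3 healthy libraries. The choice by lower levels in the same libraries favours this. Over all genes tested, 0.354% were called lower in tumour-bearing spleens and 5.71% had groups that did not overlap with the tumour-bearing side lower. Mean levels in tumour-bearing spleens, as a percentage of the healthy mean, were 12.6% for Denn2b, 23.1% for Gpr25, 30.2% for Tbxa2r, 39.5% for Cym, 40.6% for Slc25a23 and 41.7% for Dhrs3. The fitted log2 differences were -2.97, -2.12, -1.66, -1.35, -1.35 and -1.27 in the same order. The 6 are not simply the genes with the largest differences among those called lower. Letm2, a mitochondrial inner membrane protein gene with -1.34, lay between Slc25a23 and Dhrs3 and is not among them. Cited2, a transcriptional co-regulator gene with -1.09, came next after Dhrs3. Both are given only as a description of the choice. With the split of the spleen libraries as a block the differences were -2.99 for Denn2b, -2.0 for Gpr25, -1.67 for Tbxa2r, -1.38 for Cym, -1.29 for Slc25a23 and -1.27 for Dhrs3.

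**Figure D1:**
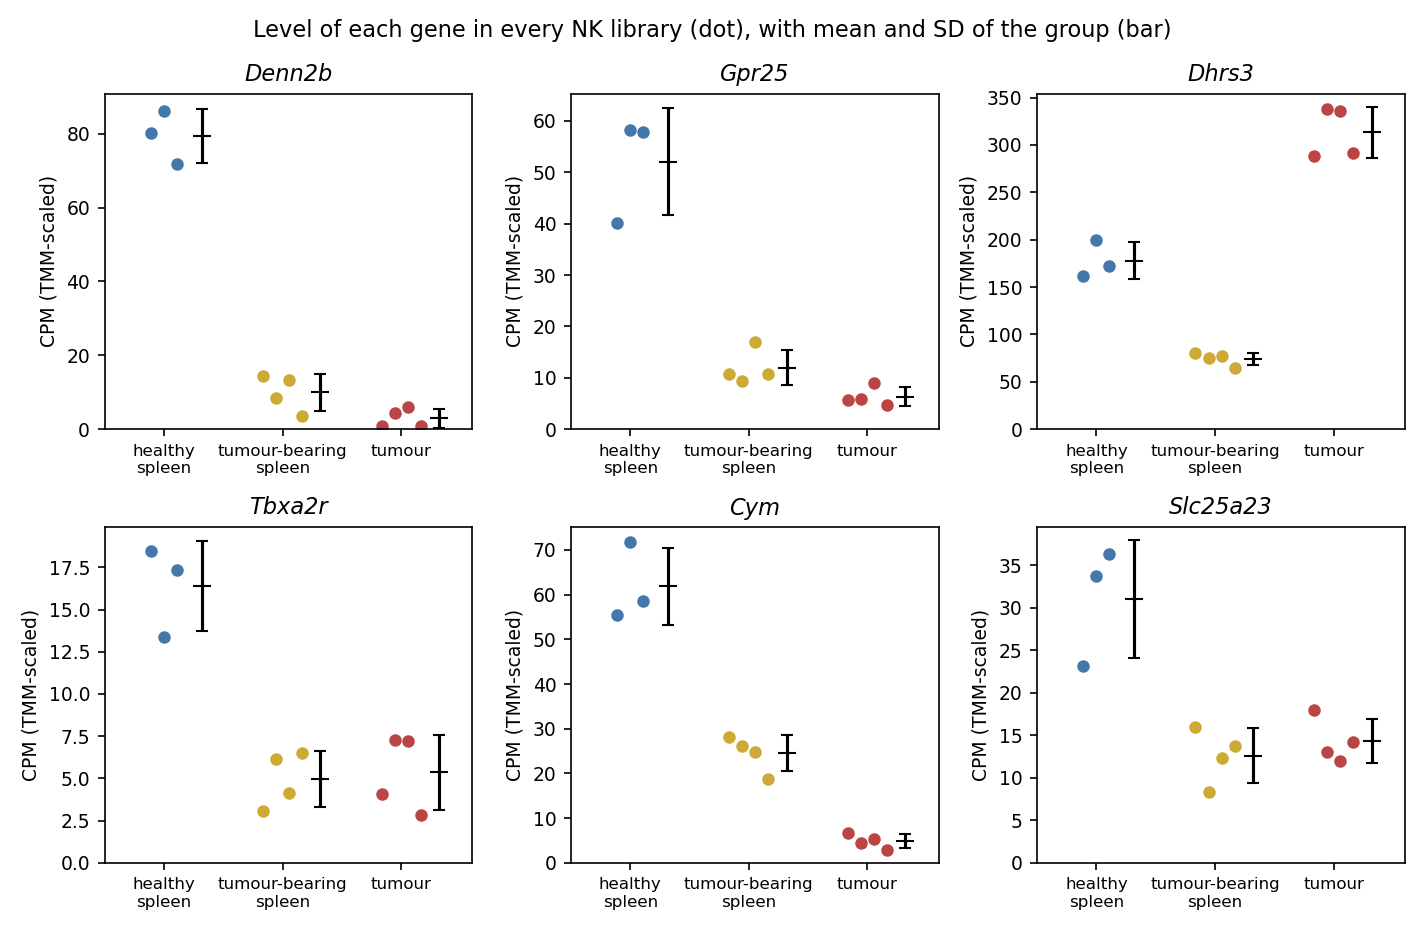
Level of each of the 6 genes in every NK library, in CPM on TMM-scaled library sizes (vertical axes start at 0 and differ between genes), for 3 healthy spleen, 4 tumour-bearing spleen and 4 tumour libraries. Dots are libraries, and the bar beside them is the group mean with its SD. Cym falls again in the tumour, from 24.5 to 4.79 CPM, Tbxa2r and Slc25a23 overlap between tumour-bearing spleen and tumour, and Dhrs3 lies above both spleen groups at 313.5 CPM.

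In the tumour the 6 genes parted. Measured against tumour-bearing spleen NK, Cym, Denn2b and Gpr25 fell further, Tbxa2r and Slc25a23 were not called, and Dhrs3 rose (quasi-likelihood test of edgeR, with p-values adjusted over all 8471 genes by the method of Benjamini and Hochberg). These 3 lower and 1 higher calls stand beside 13.2% of all genes called lower and 15.8% called higher in this comparison, so calls are common in it. Measured against healthy spleen NK, 5 genes were lower in the tumour and Dhrs3 was higher, where 14% of all genes were called lower and 16.5% higher. The median log2 difference of the 6 was -0.38 against tumour-bearing spleens and -2.27 against healthy spleens, with medians over all genes of 0.0014 and 0.016. Both comparisons share libraries with the choice of the genes. A chance low in the tumour-bearing libraries would move the first comparison upward, and a chance high in the healthy libraries would move the second downward. All changes below are log2 fold changes. In bulk RNA, fewer cells that express a gene and less of its RNA per cell cannot be told apart.

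**Figure D2:**
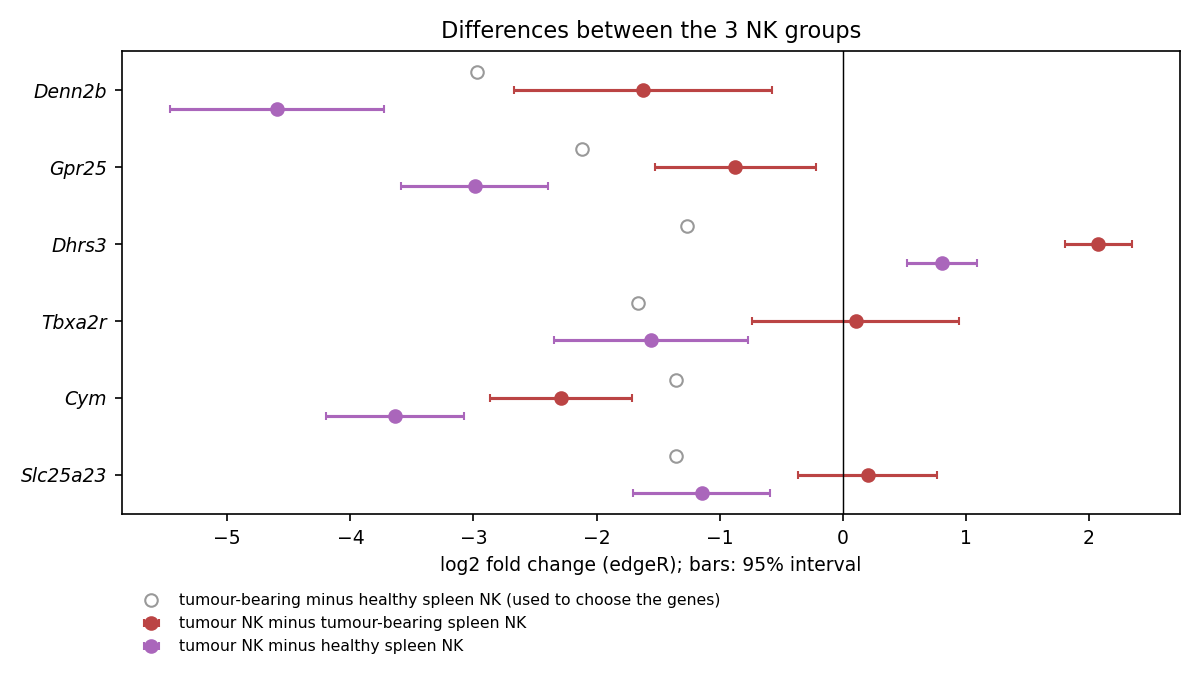
Fitted log2 fold changes of the 6 genes between the 3 NK groups, with 95% intervals for tumour minus tumour-bearing spleen (red) and tumour minus healthy spleen (purple). Open circles give the spleen difference by which the genes were chosen, without an interval. Against tumour-bearing spleens the values run from -2.29 for Cym to 2.07 for Dhrs3, and the intervals of Tbxa2r and Slc25a23 include 0.

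Cym was lower at each step from healthy spleen to tumour. Its levels were 55.5, 71.7 and 58.6 CPM in healthy spleen replicates 1 to 3, 28.2, 26.2, 24.7 and 18.8 CPM in tumour-bearing spleen replicates 1 to 4, and 6.56, 4.35, 5.41 and 2.85 CPM in tumour replicates 1 to 4. No library of a group reached into the next, and the order of the group means was 61.9 ± 8.61, 24.5 ± 4.05 and 4.79 ± 1.58 CPM (SD, n = 3, 4 and 4). Non-overlap in this direction was found for 13.3% of all genes between tumour and tumour-bearing spleen and for 16.3% between tumour and healthy spleen. Cym was lower in the tumour by a log2 difference of -2.29 against tumour-bearing spleens (SE 0.276, 95% interval -2.87 to -1.71, adjusted p 3.03e-06, edgeR). Against healthy spleens it was lower by -3.64 (SE 0.267, adjusted p 5.23e-09), which left 7.74% of the healthy mean. The tumour level rests on 8, 3, 9 and 3 counts. The ratio of summed counts, tumour to tumour-bearing spleen, was 0.202 with an exact counting interval from 0.125 to 0.315.

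Other aspartic protease genes were called in either direction. In tumour compared with tumour-bearing spleen NK, 2 of the 5 tested rose and 1 fell. The lysosomal protease gene Ctsd (cathepsin D) fell by 0.62 on the log2 scale, from 1970 to 1277 CPM (adjusted p 0.00283). Ctse (cathepsin E) rose by 0.59 (adjusted p 0.00215) and Napsa (napsin A) by 0.52 (adjusted p 0.00839). Between the spleens Napsa was higher in tumour-bearing mice by 0.69 (adjusted p 0.0319), and the other 4 genes were not called.

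Denn2b was the lowest of the 6 relative to healthy spleens. It stood at 80.1, 86.1 and 71.8 CPM in the healthy libraries, at 14.5, 8.37, 13.4 and 3.62 CPM in the tumour-bearing spleens, and at 0.820, 4.35, 6.01 and 0.951 CPM in the tumours. The tumour libraries held 1, 3, 10 and 1 counts, so 3 of them are at or under the 3-count limit. Tumour-bearing replicate 4 lies within the range of the tumour libraries, so these groups overlap, whereas no tumour library came near a healthy one. Means were 79.4 ± 7.20, 9.96 ± 5.00 and 3.03 ± 2.57 CPM (SD, n = 3, 4 and 4), the tumour mean being 3.82% of the healthy mean.

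The fall of Denn2b from healthy spleen to tumour was -4.60 (SE 0.414, adjusted p 2.01e-07, edgeR), with a ratio of summed counts of 0.0403 (exact counting interval 0.0223 to 0.0676). The further fall from tumour-bearing spleen to tumour was -1.62 (SE 0.496, 95% interval -2.67 to -0.58, adjusted p 0.0206), with a ratio of summed counts of 0.321 (interval 0.170 to 0.569). This second call depended on single libraries. It was lost without tumour replicate 1 (-1.29, adjusted p 0.0716), without tumour replicate 4 (-1.36, adjusted p 0.0638) and without tumour-bearing replicate 3 (-1.43, adjusted p 0.0677), and without tumour replicate 3 the difference was -2.51 (adjusted p 0.00544).

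Among the other genes of the DENN domain and Rab list, 21 were tested, of which 5 were higher and 3 lower in tumour than in tumour-bearing spleen NK, and 0 were called between the spleens (0 also at an unadjusted p under 0.05 and 0 in DESeq2). The DENN domain genes Dennd4a, with 1.62 (adjusted p 1.58e-07) from 50.7 to 158.1 CPM, and Dennd3, with 1.04 (adjusted p 0.000493), rose, as did Rab8b, the gene of a Rab GTPase of exocytic traffic, with 1.22 (adjusted p 9.88e-05). Dennd1c fell by 0.66 (adjusted p 0.000506), Madd, a Rab exchange factor gene, by 0.56 (adjusted p 0.00691) and Dennd4b by 0.62 (adjusted p 0.0158). Dennd1b was not called, at 0.84 (adjusted p 0.375). The higher count was 3 with raw totals, against side 1 of the spleen split alone, and without tumour replicate 1 or 4 or tumour-bearing replicate 3 or 4. The median of the list was 0.053.

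Gpr25 stood at 40.1, 58.3 and 57.8 CPM in healthy spleens, at 10.7, 9.49, 17.0 and 10.8 CPM in tumour-bearing spleens and at 5.74, 5.80, 9.02 and 4.75 CPM in tumours. The 3 groups did not overlap, but tumour replicate 3, the highest of its group, lay just under tumour-bearing replicate 2, the lowest of its own. The tumour levels rest on 7, 4, 15 and 5 counts. Means were 52.1 ± 10.4, 12 ± 3.38 and 6.33 ± 1.86 CPM (SD, n = 3, 4 and 4), and the tumour mean was 12.2% of the healthy mean. The fall from healthy spleen was -2.99 (SE 0.286, adjusted p 1.67e-07, edgeR).

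The difference of Gpr25 between tumour and tumour-bearing spleen was small and lay near the threshold, at -0.87 (SE 0.311, 95% interval -1.52 to -0.22, adjusted p 0.0414). DESeq2 did not call it (-0.89, adjusted p 0.0790). In edgeR the call was also lost without any of 7 libraries. These were tumour replicates 1 (adjusted p 0.103), 2 (0.0804) and 4 (0.110), tumour-bearing replicates 3 (-0.64, 0.172) and 4 (0.0518), and healthy replicates 2 (0.0521) and 3 (0.0505). The direction was the same in each of these fits.

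The list of lymphocyte G protein-coupled receptors held 24 other tested genes, of which 13 were higher and 3 lower in tumour than in tumour-bearing spleen NK, with a median of 1.09, and 0 were called between the spleens (7 at an unadjusted p under 0.05, 0 in DESeq2). Against side 2 of the spleen split alone 5 were lower. Gpr132, a receptor linked to lysophospholipids and acid, rose by 2.76, from 94.98 to 641.5 CPM (adjusted p 1.26e-10). P2ry14, the receptor for UDP-glucose, rose by 2.98 (adjusted p 1.23e-07), Cysltr2, a cysteinyl leukotriene receptor, by 2.26 (adjusted p 2.25e-07) and Gpr171 by 1.46 (adjusted p 0.00123). Gpr183, the oxysterol receptor, was at 1.78 CPM in tumour-bearing spleens, near the level of a few counts, and at 27.5 CPM in tumours (3.92, adjusted p 4.37e-08), and Adgrg3, an adhesion receptor gene, went from 2.08 to 25.8 CPM (3.63, adjusted p 5.01e-07). Downward calls were those of S1pr5, a sphingosine 1-phosphate receptor of NK cell egress, with -3.09 (adjusted p 6.48e-11), the histamine receptor gene Hrh2 with -1.17 (adjusted p 8.66e-05) and S1pr4 with -0.60 (adjusted p 0.00990). Gpr65, an acid-sensing receptor gene, was not called, at 0.21 (adjusted p 0.343).

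Tbxa2r was not called between tumour and tumour-bearing spleen, and it was lower in both than in healthy spleen. It stood at 18.5, 13.4 and 17.3 CPM in healthy spleens, at 3.05, 6.14, 4.12 and 6.51 CPM in tumour-bearing spleens and at 4.10, 7.25, 7.22 and 2.85 CPM in tumours. The tumour and tumour-bearing libraries overlap over most of their range, and every healthy library lies above all of them. The difference between tumour and tumour-bearing spleen was 0.11 (SE 0.402, 95% interval -0.73 to 0.95, adjusted p 0.872, edgeR), an interval that still allows a fall to 0.601 times or a rise to 1.93 times the level. Its sign was negative with raw library totals (-0.0197), without tumour replicate 3 (-0.17) and without tumour-bearing replicate 1 (-0.07). Against healthy spleens the tumour level was lower by -1.56 (SE 0.378, adjusted p 0.00392), at means of 5.35 ± 2.23 (SD, n = 4) and 16.4 ± 2.68 CPM (SD, n = 3).

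Since Tbxa2r is also a receptor of platelets, platelet and megakaryocyte markers were read in the same libraries. Of 12 such markers 4 were listed, with summed levels of 81.7 to 106.5 CPM in healthy spleens, 100.5 to 127.3 CPM in tumour-bearing spleens and 318.7 to 396.5 CPM in tumours. Pf4, the platelet chemokine, had means of 0.632, 1.54 and 2.25 CPM in that order. Itgb3, which other leukocytes express too, held most of the tumour sum, at 333.6 CPM, and Gp1bb went from 69.0 and 58.1 CPM in the spleens to 10.2 CPM in the tumour. The part of platelet RNA in the level of Tbxa2r was not tested.

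Of the other prostanoid genes 14 were tested, with 2 higher and 5 lower in tumour than in tumour-bearing spleen NK and 0 called between the spleens (1 at an unadjusted p under 0.05, 0 in DESeq2). The lower count was 2 without tumour replicate 1 or 2 or tumour-bearing replicate 3, and 3 without tumour replicate 3 or tumour-bearing replicate 4, and the higher count was 1 without any of these or without tumour-bearing replicate 2. Against side 1 of the spleen split alone 1 was higher and 2 lower, and with raw totals, upper-quartile scaling or DESeq2 1 was higher. Ptgs1, cyclooxygenase 1, which stands upstream of thromboxane, fell by 1.27 from 10.04 to 4.16 CPM (adjusted p 0.0275, edgeR). Among genes of the receptor's signalling, the G protein gene Gna13 rose by 2.15 from 94.9 to 423.0 CPM (adjusted p 5.06e-10), whereas Plcb2, a phospholipase C gene, fell by 0.73 (adjusted p 0.00290) and Gna11 by 0.63 (adjusted p 0.0117). Arhgef1 was also lower, at -0.50 (adjusted p 0.0231), with means of 1068 CPM in tumour-bearing spleens and 755.9 CPM in tumours. The prostaglandin E synthase gene Ptges2 fell by 0.76 (adjusted p 0.0361), and the phospholipase A2 gene Pla2g6 rose by 0.75 (adjusted p 0.0367). Ptger4, a prostaglandin E2 receptor gene, was not called, at 0.23 (adjusted p 0.373).

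Slc25a23 had the same order of calls, lower in the tumour than in healthy spleen and not called against tumour-bearing spleen. Its levels were 23.1, 33.7 and 36.3 CPM in healthy spleens, 16.0, 8.37, 12.4 and 13.7 CPM in tumour-bearing spleens and 18.0, 13.04, 12.03 and 14.3 CPM in tumours. Tumour and tumour-bearing libraries overlap, with tumour replicate 1 the highest of the 8, and healthy replicate 1 is the lowest of its group but above all of them. The difference between tumour and tumour-bearing spleen was 0.20 (SE 0.270, 95% interval -0.36 to 0.77, adjusted p 0.609, edgeR). Against healthy spleens the tumour was lower by -1.15 (SE 0.267, adjusted p 0.00283), with means of 14.3 ± 2.63 (SD, n = 4) and 31.0 ± 6.99 CPM (SD, n = 3), that is 46.2% of the healthy mean.

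Of 18 other genes for mitochondrial carriers and calcium handling, 5 were higher and 0 lower in tumour than in tumour-bearing spleen NK, with a median of 0.30. The higher count was 3 with the groups compared alone and without tumour replicate 2 or 4 or tumour-bearing replicate 3 or 4, and 2 against side 1 of the spleen split alone. Between the spleens 0 were called in edgeR, 1 at an unadjusted p under 0.05 and 1 in DESeq2. The phosphate carrier Slc25a3 rose by 0.85 from 718.8 to 1300 CPM (adjusted p 5.25e-05). The ADP/ATP carriers Slc25a4 and Slc25a5 rose by 0.66 (adjusted p 0.00341) and 0.49 (adjusted p 0.0107), the pyrimidine nucleotide carrier Slc25a36 by 1.37 (adjusted p 0.0229) and the outer membrane channel Vdac2 by 0.37 (adjusted p 0.0473). The relatives of Slc25a23 that also carry ATP-Mg, Slc25a24 and Slc25a25, were not called, at -0.05 (adjusted p 0.869) and 0.39 (adjusted p 0.158).

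Dhrs3 alone of the 6 was higher in the tumour, above both spleen groups. It stood at 161.8, 199.6 and 172.5 CPM in healthy spleens, at 80.0, 74.8, 77.2 and 65.1 CPM in tumour-bearing spleens and at 288.6, 337.6, 336.1 and 291.9 CPM in tumours. The groups did not overlap, and the order of the levels was tumour, healthy spleen, tumour-bearing spleen, with means of 313.5 ± 27.0 (SD, n = 4), 178.0 ± 19.5 (SD, n = 3) and 74.3 ± 6.49 CPM (SD, n = 4). Groups apart in this direction were found for 16.5% of all genes against tumour-bearing spleens and 18.5% against healthy spleens. In the tumour Dhrs3 was 4.21-fold higher than in tumour-bearing spleens (log2 2.07, SE 0.130, 95% interval 1.80 to 2.35, adjusted p 5.36e-10, edgeR). It was 1.75-fold higher than in healthy spleens (log2 0.81, SE 0.136, 95% interval 0.52 to 1.09, adjusted p 0.000146).

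Several marker sets of other cell types were also higher in the tumour libraries. Summed macrophage and monocyte markers (8 of 12 listed) were 9.25 to 24.1 CPM in healthy spleens, 17.5 to 28.8 CPM in tumour-bearing spleens and 44.7 to 258.5 CPM in tumours, with Csf1r at 0 in both spleen groups. Neutrophil markers (4 of 12 listed) were 0.535 to 7.70, 0.723 to 13.4 and 59.8 to 158.0 CPM, and the carcinoma or epithelial markers Epcam and Cdh1 (2 of 10 listed) summed to 0 to 3.08, 0 to 2.79 and 27.7 to 54.9 CPM. Dendritic cell markers (5 of 10 listed) were 195.7 to 285.6, 332.1 to 458.6 and 465.2 to 655.1 CPM. Of those listed, Itgax alone had a lower mean in tumours than in tumour-bearing spleens, with means of 160.4, 269.6 and 198.3 CPM in the same order of groups. The erythroid marker Car2 (1 of 10 listed) was 158.9 to 223.4, 213.6 to 354.4 and 928.4 to 1161 CPM, and the endothelial marker Pecam1 (1 of 8 listed) was 41.6 to 80.9, 74.8 to 94.2 and 139.1 to 201.6 CPM. T cell markers (4 of 12 listed) at 57.0 to 89.1, 113.3 to 155.5 and 91.3 to 164.1 CPM, B cell markers (2 of 12 listed) at 19.3 to 25.6, 8.37 to 15.9 and 4.35 to 23.4 CPM, and fibroblast markers (3 of 11 listed) at 6.60 to 18.7, 3.05 to 14.5 and 5.80 to 30.3 CPM overlapped between tumours and a spleen group. The plasma cell marker Xbp1 (1 of 6 listed), which other cells express too, was 92.5 to 103.8, 118.6 to 152.4 and 166.4 to 207.2 CPM. Their part in the rise of Dhrs3 was not tested.

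Among 14 other retinoid genes tested, 1 rose and 1 fell in tumour compared with tumour-bearing spleen NK. The lower count was 2 with upper-quartile scaling, with the groups compared alone, and without healthy replicate 1 or tumour-bearing replicate 1, and 3 with raw totals. Against the sides of the spleen split alone 2 were higher on each, and 3 were lower on side 2. The list had a median of -0.08. Between the spleens 0 were called, also at an unadjusted p under 0.05 and in DESeq2. Rara, retinoic acid receptor alpha, rose by 1.75 from 50.4 ± 4.35 to 169.7 ± 16.3 CPM (SD, n = 4 each, adjusted p 1.10e-08, edgeR), and it was 53.9 ± 6.85 CPM in healthy spleens (SD, n = 3). Dhrs7b, a dehydrogenase/reductase of the same superfamily, fell by 1.07 (adjusted p 0.000328), and Dhrs7 was not called, at -0.37 (adjusted p 0.0973).

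**Figure D3:**
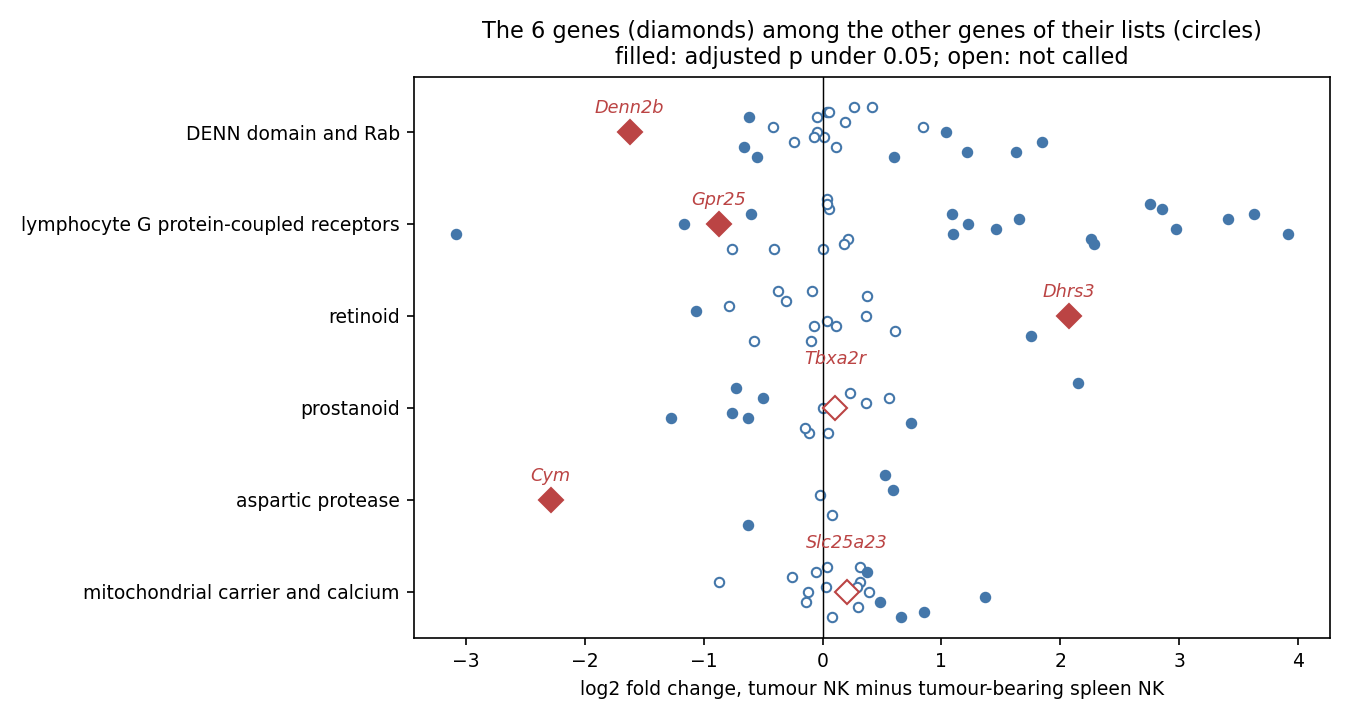
Log2 fold change, tumour minus tumour-bearing spleen NK, of the 6 genes (red diamonds) and the other tested genes of their pathway lists (blue circles), 1 list per row. Filled symbols have an adjusted p under 0.05 and open symbols do not, and vertical offsets within a row carry no value. Cym at -2.29 and Denn2b at -1.62 are the lowest points of their rows, and Dhrs3 at 2.07 is the highest of its row.

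A further list of 23 tested genes of NK cell maturation and tissue residency had 8 higher and 7 lower in tumour than in tumour-bearing spleen NK. S1pr5 (-3.09), which is on the receptor list too, Klrg1 (-1.62) and Cx3cr1 (-2.37), genes of mature circulating NK cells, fell (adjusted p 6.48e-11, 5.40e-08 and 3.45e-08, edgeR). The signalling regulator gene Rgs1 rose by 3.46 (adjusted p 4.83e-09), Ccr7, the lymph node homing receptor gene, by 4.37 (adjusted p 3.24e-08) from 2.10 CPM, which is near the level of a few counts, and Kit by 1.87 (adjusted p 5.61e-08). Between the spleens 2 of the 23 were called, both higher in tumour-bearing mice, and these were Cx3cr1 with 1.60 (adjusted p 0.000212) and Kit with 1.21 (adjusted p 0.00649). Over all 7 lists 118 genes other than the 6 were tested. Between the spleens 3 were called higher and 0 lower, where 1.23% of all genes were called higher. There 14 of the 118 had an unadjusted p under 0.05, as had 951 of all genes, and DESeq2 called 4 higher and 0 lower. In tumour against tumour-bearing spleen 36 were higher and 19 lower, and against healthy spleen 34 were higher and 20 lower.

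The split of the spleen libraries touched the 6 genes unequally. Against tumour-bearing replicates 1 and 2 alone, tumour NK differed by 2.01 for Dhrs3 (adjusted p 3.28e-11), -2.44 for Cym (adjusted p 9.97e-07), -1.77 for Denn2b (adjusted p 0.0143), -0.60 for Gpr25 (adjusted p 0.332) and 0.27 for Slc25a23 (adjusted p 0.634). Against replicates 3 and 4 alone, the differences were 2.10 for Dhrs3 (adjusted p 1.83e-10), -2.16 for Cym (adjusted p 2.29e-05), -1.12 for Gpr25 (adjusted p 0.0187) and 0.11 for Slc25a23 (adjusted p 0.807). Dhrs3 and Cym were thus called on both sides, and Gpr25 on side 2. Denn2b did not pass the filter on low counts against side 2, nor Tbxa2r against either side.

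The genes most like each of the 6 over the 11 NK libraries were looked up among 7217 genes with a mean of at least 10 CPM, by Pearson's r of log2 CPM. These r describe points that share groups and libraries, and they are the highest of many. Denn2b and Gpr25 were among each other's closest genes (r = 0.957). The 6 genes were all chosen for the same spleen difference in these libraries, which favours a high r between such a pair. Denn2b was also near Apobec3 (r = 0.961), a cytidine deaminase gene of antiviral defence with means of 158.8, 117.7 and 90.4 CPM in healthy spleen, tumour-bearing spleen and tumour, and near Ric8a (r = 0.960), a G protein chaperone gene. Gpr25 was near Abhd11 (r = 0.960) and Smpd1 (r = 0.948), the acid sphingomyelinase gene, which went from 73.9 to 45.9 and 32.7 CPM.

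Cym was nearest to Klrb1c (r = 0.974), the gene of NK1.1, with means of 444.3, 325.2 and 203.4 CPM, followed by Acp5 (r = 0.970), an acid phosphatase gene at 242.1, 155.7 and 57.2 CPM, and Osbpl5 (r = 0.970). Dhrs3 was nearest to Gimap6 (r = 0.954), an immune GTPase gene at 1246, 1040 and 1379 CPM, to Ubn1 (r = 0.951) and to Scd2 (r = 0.942), a fatty acid desaturase gene at 44.4, 26.0 and 90.0 CPM. Tbxa2r was nearest to Peg13 (r = 0.940), Os9 (r = 0.926) and Plekha5 (r = 0.918). Slc25a23 was nearest to Smpd5 (r = 0.965), a sphingomyelinase gene at 98.3, 55.01 and 55.5 CPM, then to Sesn1 (r = 0.890), a stress-response gene, and Mthfsd (r = 0.860). Among the 6 themselves r ran from -0.54 between Dhrs3 and Cym to 0.957 between Denn2b and Gpr25. With the group means taken out it ran from -0.54 between Tbxa2r and Slc25a23 to 0.83 between Denn2b and Dhrs3. Dhrs3 and Cym were then at 0.51, and Denn2b and Gpr25 at 0.52.

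Of the 6 genes, 4 were listed in the sCAF table, whose libraries held 1318067 to 2230475 counts. Gpr25 and Cym were not in that table and have no value there. The 2 tables were counted separately, so the levels stand side by side with no test and in CPM on raw library totals. Denn2b was at 67.7, 50.8 and 97.6 CPM in the 3 sCAF libraries, against 0.761 to 5.44 CPM in tumour NK. Dhrs3 had the opposite order, with 4.93, 7.59 and 9.76 CPM in sCAFs against 267.4 to 327.0 CPM in tumour NK. Slc25a23 was at 1.79, 3.03 and 8.26 CPM in sCAFs against 10.9 to 16.7 CPM, and Tbxa2r had 1, 0 and 0 counts, where 3 counts are worth 1.35 to 2.28 CPM. The sCAF libraries thus held higher CPM of Denn2b and lower CPM of Dhrs3 than the tumour NK libraries, each on the total of its own table. Whether both came from the same tumours is not given in the sources used here.

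**Figure D4:**
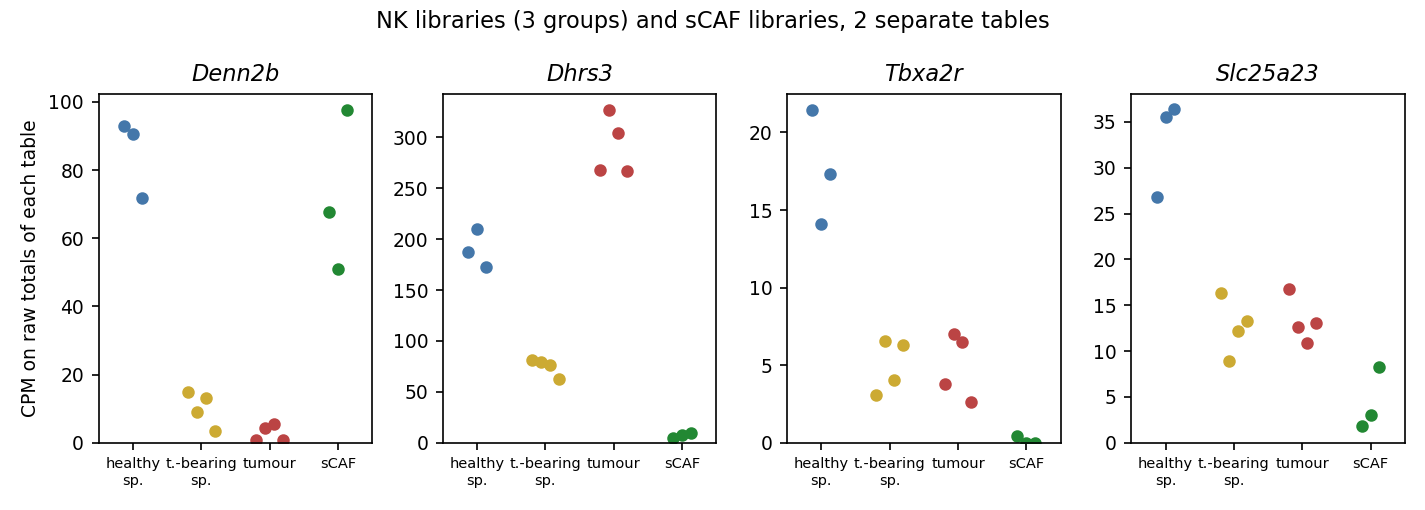
The 4 genes listed in both tables, in CPM on raw library totals of each table, with 1 dot per library for healthy spleen NK (3), tumour-bearing spleen NK (4), tumour NK (4) and sCAFs (3). Vertical axes start at 0 and differ between genes. Denn2b is at 50.8 CPM or more in every sCAF library and at 5.44 CPM or less in every tumour NK library, and Dhrs3 shows the reverse order.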

How the data were processed

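Per the labels, polyA RNA of sorted NK cells (11 libraries in 3 groups) and sCAFs (3 libraries) was sequenced from its 3' ends. The authors deposited raw counts per gene symbol in 2 tables. bcl2fastq, STAR 2.4.2a, HTSeq and mm10 are named in the submitters' processing notes, with no order or settings, and the annotation, strand setting and use of molecular identifiers are not given in the sources used here. All values were whole numbers. The lowest maximum over libraries of a gene in the NK table was 6, so genes below that had been left out and totals are sums over listed genes. A pair of column names in the NK header is joined by spaces in place of a tab, and columns were read by position.

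The 6 genes and the 7 pathway lists were chosen with earlier results of these data known. In edgeR 4.0.16 (R 4.3.3, limma 3.58.1), genes kept by filterByExpr (8471 of 10210) were scaled by TMM, and 1 robust quasi-likelihood model with the group as its term was fitted to all 11 libraries. A gene was called at p under 0.05 after Benjamini-Hochberg adjustment across the tested genes. Other genes were named by rule: for each of the 6 the 3 with the highest r among genes with a mean of at least 10 CPM (log2 CPM with a prior count of 2; predicted, ribosomal and pseudogene-like names left out), and of each list up to 6 called genes with the smallest p plus relatives of the 6. Letm2 and Cited2, which stand directly before and after Dhrs3 in the order of the spleen difference, were named after their values were seen. So were list genes from counts of 5 or fewer. The labels call the replicates independent but name no animals, so p-values measure the spread between these libraries. Exact counting intervals of ratios are from conditional binomial tests. The script was tested on simulated data. Alternatives were DESeq2 1.42.0, other scalings and filters, the groups compared alone, each library left out, and blocks.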

Additional observations from a re-analysis of the deposited data

How the results depend on the processing

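In the tumour comparisons 220 of 235 alternative values of the 6 genes kept direction and call. The 12 calls lost and 3 signs turned are those of Denn2b, Gpr25 and Tbxa2r. Leaving out 1 library gave -2.51 to -1.29 for Denn2b, -1.17 to -0.64 for Gpr25 and -0.17 to 0.30 for Tbxa2r against tumour-bearing spleens, with 1 to 3 of the 6 called lower. Gpr25 was -0.89 in DESeq2 and -0.60 against side 1 of the split, and Tbxa2r -0.0197 with raw totals.

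Raw library totals raised the genes called lower in the tumour from 1115 to 1696 (against tumour-bearing spleens) and from 1183 to 2002 (against healthy spleens), and those lower between spleens from 30 to 47. Between spleens a replicate block, which ties healthy to other libraries by number alone, gave 18 lower. The split as a block gave 443 higher and 248 lower, with 7 higher and 8 lower of the 118 list genes. As the split was drawn from the spread of these same libraries, a block on it removes spread by construction. The larger counts are therefore no evidence of a batch or of more changed genes. Leaving out 1 library gave 35 to 110 higher and 7 to 32 lower between spleens, 782 to 1406 lower in the tumour than in healthy spleens, and, of the list genes, 13 to 23 lower in that comparison and 1 to 3 higher between spleens.

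Whether equal replicate numbers mean a shared mouse is not said by the labels and was not settled here. Same-numbered libraries correlated at -0.353 to 0.501 over 10 pairs, 4 of them over 0.1, and in 5 of 20 pairings of a library with another group it correlated best with its own number. These pairs include healthy mice, which cannot share a mouse with the other groups. Between tumour-bearing spleen and tumour alone, the same-numbered correlations were -0.047, 0.288, 0.0025 and 0.211 for replicates 1 to 4. With the replicate block 1451 genes were higher and 1175 lower in tumour than in tumour-bearing spleen NK. That block also ties in the healthy libraries of the same number, so it is not a paired test of tumour and spleen of 1 mouse. Low counts of Denn2b, Gpr25, Tbxa2r and Cym in tumour libraries limit their precision. Against tumour-bearing spleens, Denn2b and Tbxa2r could not be fitted with the groups compared alone, nor Denn2b against side 2 and Tbxa2r against either side.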
